A study of Mus musculus with 12 samples.

Results

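The cytosolic ribosome of the mouse is built from ribosomal RNA and a set of ribosomal proteins, each encoded as a rule by a single expressed gene and a varying number of processed pseudogenes. The genes described here were those whose symbol is Rpl or Rps followed by a number, with an optional a or x, or is Rplp0, Rplp1, Rplp2 or Rpsa. This rule found 76 genes among 55421 gene identifiers, 46 for the large (60S) subunit and 30 for the small (40S) subunit. It used no measured value and left out pseudogenes. The genes lie on 19 chromosomes, with 14 on chromosome 7 and 4 on chromosome X.

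The libraries came from the pituitary of C57BL/6 mice carrying floxed Gpr101 alleles, and every group had received a virus (AAV) whose label names Cga, the gene of the alpha subunit shared by the glycoprotein hormones. Gpr101 encodes an orphan receptor coupled to the stimulatory G protein, and AA14 is named as a ligand in the study's title. The 4 groups of 3 libraries were Cga-creAAVGpr101fl/fl mice given AA14 (cre_AA14), Cga-creAAVGpr101fl/fl mice given control vehicle (cre_Vehicle), Cga-ctrlAAVGpr101fl/fl mice given AA14 (ctrl_AA14) and Cga-ctrlAAVGpr101fl/fl mice given control vehicle (ctrl_Vehicle), each for 1 week. Per the labels, the glands were dispersed to single cells and passed through flow cytometry, and total RNA of pituitary cells was sequenced as paired reads. The labels do not say that the libraries of a group came from separate mice, so every p-value measures the spread between these libraries only. The label ties the virus to Cga, which gonadotrophs and thyrotrophs express, while the RNA is labelled only as that of pituitary cells. Which cells were taken by flow cytometry is not given in the labels.

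Ribosomal protein mRNAs belong to the TOP mRNAs, which start with a C followed by a run of pyrimidines at the 5′ end. Their translation is held back by the RNA-binding protein Larp1 and released by the kinase complex mTORC1, and their mRNA levels tend to move together. Endocrine pituitary cells make large amounts of peptide hormone, and ribosomal proteins are among the most abundant mRNAs in such cells.

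The start-site windows of 9 of these genes are shown because 6 of them hold a pyrimidine run at the annotated start and 3 do not, and because Rplp2, Rps10, Rpl14 and Rpl7a are among those whose levels depart from the others below. Each window covers 15 bases before the RefSeq start and 15 from it on, read 5′ to 3′ on the gene's strand of GRCm38.p6. Capitals mark the run of at least 5 C or T letters that holds the start; T stands for U in the RNA.
Rplp2: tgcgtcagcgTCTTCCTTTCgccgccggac
Rps10: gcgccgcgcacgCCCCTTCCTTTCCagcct
Rpl14: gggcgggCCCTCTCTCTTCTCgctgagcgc
Rpl7a: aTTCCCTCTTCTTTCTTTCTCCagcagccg
Rps6: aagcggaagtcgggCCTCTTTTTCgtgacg
Rps15a: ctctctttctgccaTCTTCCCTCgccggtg
Rpl41: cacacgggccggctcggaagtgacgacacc
Rpl4: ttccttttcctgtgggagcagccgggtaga
Rps23: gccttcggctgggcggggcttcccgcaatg

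The windows stand at chr7:141447636-141447665 (plus strand) for Rplp2, chr17:27635230-27635259 (minus) for Rps10, chr9:120571502-120571531 (plus) for Rpl14, chr2:26910792-26910821 (plus) for Rpl7a and chr4:86857353-86857382 (minus) for Rps6. Those of Rps15a, Rpl41, Rpl4 and Rps23 are chr7:118116133-118116162 (minus), chr10:128549154-128549183 (minus), chr9:64173372-64173401 (plus) and chr13:90923107-90923136 (plus). RefSeq windows were matched for 56 of the 76 genes, of which 8 have several annotated starts. A pyrimidine run of at least 5 bases held the start in 18 of these 56 genes (32.1%), against 2690 of 27025 genes with a window (9.95%), on the sense strand only. A match or its absence describes these letters only.

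Library totals lay between 48693682 and 73388221 counts, with a median of 68051542. Gpr101 itself was low and its levels overlapped between cre and control virus under either treatment: it had 2.57, 2.43 and 0.901 CPM (counts scaled to library size) in cre_AA14, 2.43, 4.29 and 1.29 CPM in cre_Vehicle, 3.3, 2.2 and 6.6 CPM in ctrl_AA14 and 1.65, 1.22 and 16.1 CPM in ctrl_Vehicle. Of the libraries, 5 had more than 1000 CPM of the nuclear RNA Malat1 (all 3 of ctrl_AA14, cre_Vehicle 1 and cre_AA14 2, 1110 to 1560 CPM), while the other 7 had 199 to 549 CPM. Under control virus, AA14 treatment and this Malat1 state cannot be told apart. The myelin gene Mbp reached 1020 CPM in ctrl_Vehicle 3 and 1380 CPM in cre_Vehicle 2, against 21.2 to 235 CPM in the other 10 libraries. The library cre_AA14 1 stood apart by its stress genes, with 662 CPM of Fos and 175 CPM of Atf3, against 5.33 to 233 CPM and 0.758 to 3.59 CPM elsewhere. The 7 pituitary hormone genes took 17.6 to 30.8% of counts and were detected in every library.

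All 76 genes were expressed in every library and all passed the filter on low counts. Together they took 4.64, 3.43 and 3.76% of counts in cre_AA14 (3.95% ± 0.626, SD, n = 3), 3.23, 3.1 and 3.64% in cre_Vehicle (3.32% ± 0.279, n = 3), 3.55, 3.33 and 3.45% in ctrl_AA14 (3.44% ± 0.108, n = 3) and 4.33, 3.6 and 3.1% in ctrl_Vehicle (3.68% ± 0.616, n = 3). The groups overlapped in every pairing, and the 2 highest libraries, cre_AA14 1 and ctrl_Vehicle 1, belonged to different groups. These 2 also had the most Fos (662 and 233 CPM) and the least of the hormone gene Gh (99600 and 90400 CPM). Their mean of the red cell markers was the lowest as well (6.69 and 7.32 in log2(CPM + 0.5)). The part of these traits in their share was not tested. The lowest libraries, cre_Vehicle 2 and ctrl_Vehicle 3, were the 2 with the most Mbp, and the part of admixed cells in their share was not tested. In bulk RNA, fewer cells of a type and less RNA per cell cannot be told apart. As a share of counts outside the hormone genes the range was 3.77 to 6.07%, and cre_AA14 1 and ctrl_Vehicle 1 remained the highest.

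Large subunit genes took 2.73, 2.08 and 2.3% of counts in cre_AA14, 1.96, 1.88 and 2.2% in cre_Vehicle, 2.15, 2.01 and 2.1% in ctrl_AA14 and 2.6, 2.18 and 1.88% in ctrl_Vehicle. Small subunit genes took 1.91, 1.36 and 1.46% in cre_AA14, 1.27, 1.22 and 1.44% in cre_Vehicle, 1.4, 1.33 and 1.35% in ctrl_AA14 and 1.73, 1.43 and 1.22% in ctrl_Vehicle. Both subunits thus ranked the libraries nearly alike. The small-to-large ratio was 0.635 to 0.666 in 11 libraries and 0.698 in cre_AA14 1.

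**Figure D1:**
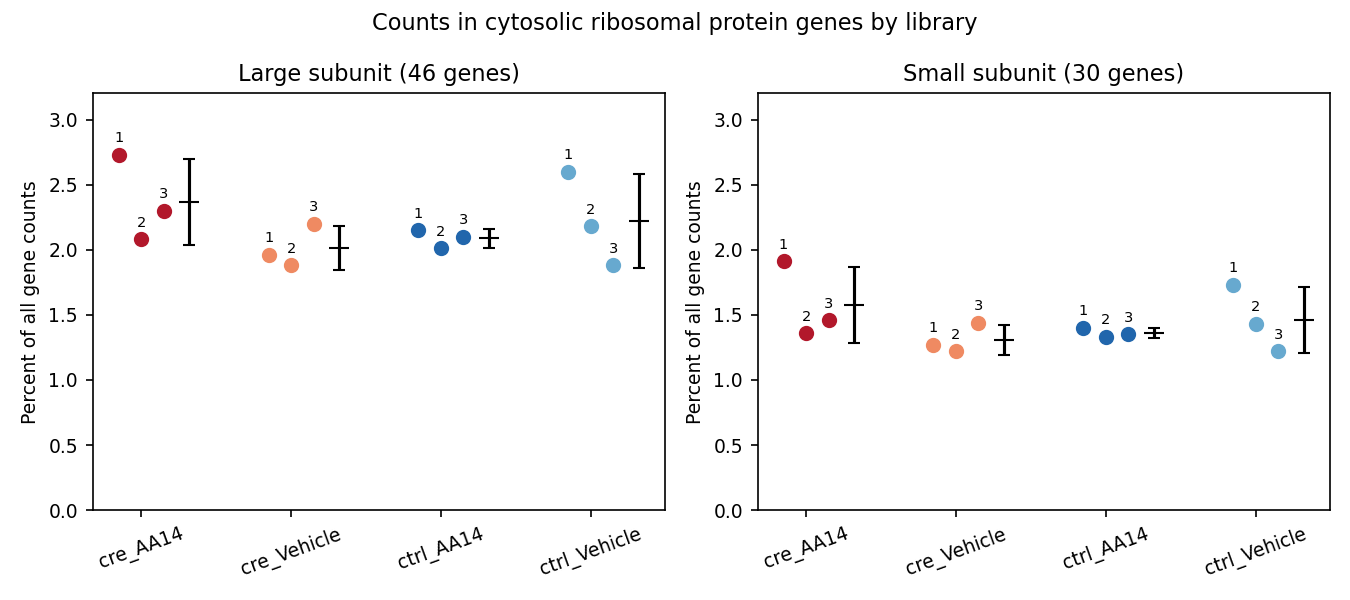
Share of all counts (percent, y axis) taken by the large and the small subunit genes in each library, with groups on the x axis in the order cre_AA14, cre_Vehicle, ctrl_AA14, ctrl_Vehicle; points are libraries numbered by replicate, and bars with whiskers are group means ± SD (n = 3). The groups overlap for both subunits, and cre_AA14 1 and ctrl_Vehicle 1 lie above the other libraries.

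Levels differed widely between genes when set per kilobase, since gene length differs. On exon length of the annotated gene, mean levels ran from 21 to 884 CPM per kilobase with a median of 230 (218 for large and 250 for small subunit genes). The 5 highest were Rplp1 (884), a stalk protein, Rpl4 (848), Rps15 (763), Rps6 (710), the substrate of S6 kinase, and Rplp0 (705), the base of the stalk. The 5 lowest were Rpl21 (21), Rps15a (42), Rplp2 (48.1), Rps28 (54) and Rps24 (60.9). Exon length merges all annotated transcripts of a gene, and this length enters the low places. It was 6270 bp for Rps15a and 6256 bp for Rps24, against coding lengths of 390 and 399 bp. On coding length instead, the range was 149 to 4400 CPM per kilobase, and the top place went to Rpl41 (4400), the smallest ribosomal protein, followed by Rpl13a (2300). Rpl21 was lowest on both lengths. Reads shared with copies bear on this order. Of the 76 genes, 71 had at least 1 near-identical copy under another gene identifier, 548 copies in all. A copy had at least 95% identity over at least 80% of the coding sequence and could lie at the same locus. Rpl21 held 10.1% of the counts of itself and its 57 copies.

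Of the genes singled out by role, Rps6 and Rpsa ranked the libraries much as the sum did. Rplp0 did so less closely and was lowest in cre_Vehicle 1. Rplp0 had 1460, 947 and 1440 CPM in cre_AA14, 934, 1090 and 1390 CPM in cre_Vehicle, 1010, 1060 and 1060 CPM in ctrl_AA14 and 1310, 1310 and 1030 CPM in ctrl_Vehicle, with overlap in every pairing of groups. Rps6 had 1480, 1070 and 1300 CPM in cre_AA14, 984, 956 and 1190 CPM in cre_Vehicle, 1080, 1060 and 1100 CPM in ctrl_AA14 and 1260, 1150 and 887 CPM in ctrl_Vehicle. Its highest library was again cre_AA14 1, and its lowest ctrl_Vehicle 3. Rpsa, the protein also known as the laminin receptor, had 1490, 1080 and 1150 CPM in cre_AA14, 1050, 942 and 1090 CPM in cre_Vehicle, 1160, 1130 and 1080 CPM in ctrl_AA14 and 1270, 1060 and 898 CPM in ctrl_Vehicle.

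Rpl5 and Rpl11, which carry the 5S ribosomal RNA into the large subunit and can bind Mdm2, were measured at 567 to 1080 CPM and 400 to 640 CPM. Rpl5 had 1080, 883 and 906 CPM in cre_AA14, 800, 662 and 835 CPM in cre_Vehicle, 858, 816 and 889 CPM in ctrl_AA14 and 898, 803 and 567 CPM in ctrl_Vehicle. Its cre_AA14 libraries lay above all 3 of cre_Vehicle, but Rpl5 overlaps Fam69a on the other strand, and whether counting used strand is not given. Rps27a, which is made as a fusion with ubiquitin, ranged over 347 to 593 CPM. The X-linked genes Rpl10, a late-joining protein of the large subunit, and Rps4x ranged over 521 to 964 CPM and 816 to 1540 CPM. For each of the last 3 genes cre_AA14 1 was the highest library and ctrl_Vehicle 3 the lowest.

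Most ribosomal protein genes moved together across libraries. When each gene was set against its own mean over the 12 libraries on the log2(CPM + 0.5) scale, the median deviation was 0.43, −0.05 and 0.15 in cre_AA14, −0.17, −0.25 and 0.05 in cre_Vehicle, −0.02, −0.09 and 0.01 in ctrl_AA14 and 0.2, 0.01 and −0.24 in ctrl_Vehicle. Of the 76 genes, 72 lay above their own mean in cre_AA14 1 and 67 in ctrl_Vehicle 1, but only 3 in cre_Vehicle 2 and 7 in ctrl_Vehicle 3 and cre_Vehicle 1 each. The library cre_AA14 1 was the highest for 66 genes. The lowest library was ctrl_Vehicle 3 for 31 genes, cre_Vehicle 2 for 25 and cre_Vehicle 1 for 10. The spread within ctrl_Vehicle was thus nearly as wide as over all libraries outside cre_AA14 1. Counts of this kind over all genes tested are not given here, so whether these genes differ from the rest in them is not shown.

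Pearson's r of each gene with the median of the other 75 had a median of 0.895 over the 12 libraries, was above 0.9 for 37 genes and below 0.5 for 8. These points share library depth and scaling, and r is given as a description. Genes with a pyrimidine run at the start had a median r of 0.91 and those without one 0.9. Around the shared pattern the SD of a gene was 0.02 to 1.45 on the log2 scale, with a median of 0.11, and it exceeded 0.25 for 8 genes. With the copies' counts added to each gene, 6 genes exceeded 0.25 and the highest SD was 0.74.

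**Figure D2:**
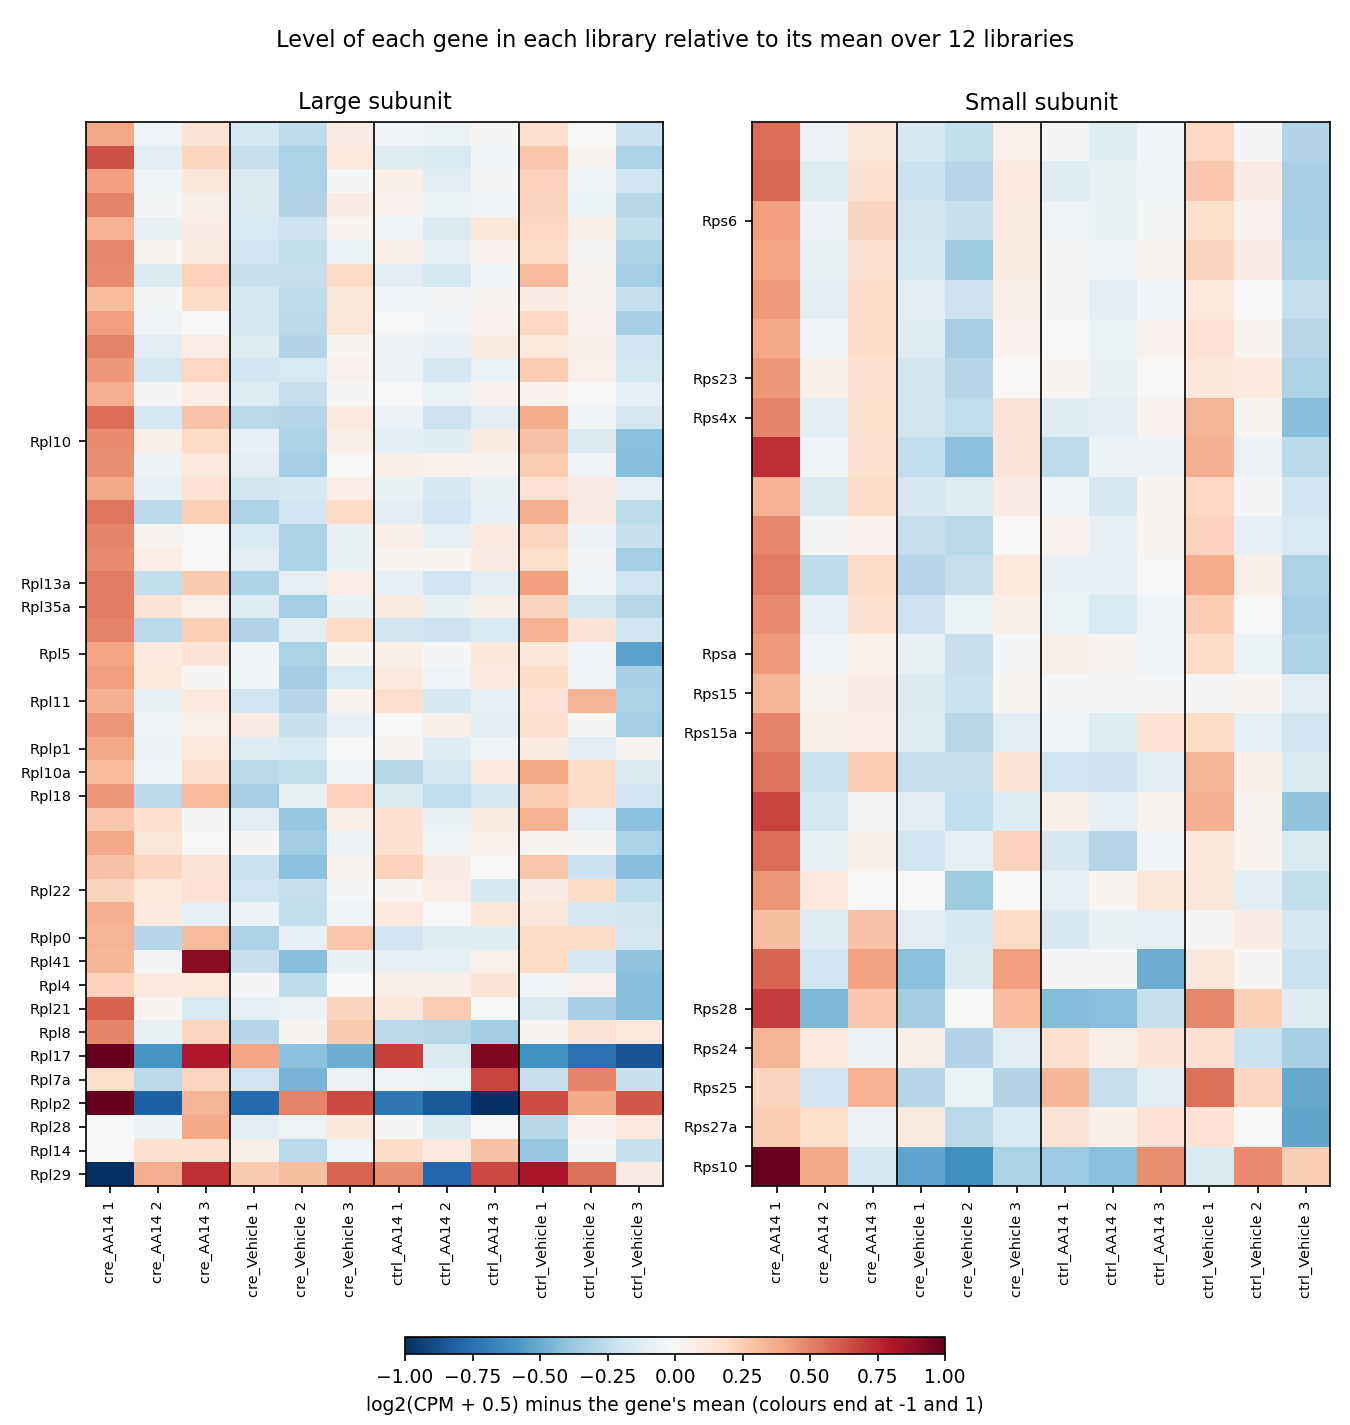
Deviation of 72 ribosomal protein genes (rows; large subunit left, small subunit right) in each of the 12 libraries (columns, grouped as cre_AA14, cre_Vehicle, ctrl_AA14, ctrl_Vehicle) from the gene's own mean, in log2(CPM + 0.5), with colours ending at −1 and 1; rows are ordered by r with the other genes, highest at the top, and genes with values in the text are labelled. The cre_AA14 1 column is red for most genes, while Rplp2, Rpl17, Rpl29, Rps10 and Rpl7a break the shared pattern.

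Among the genes least like the others were Rpl29 (r = −0.54), Rpl14 (0.08), Rpl28 (0.09), Rpl7a (0.41) and Rplp2 (0.41). Rpl29 (ENSMUSG00000048758), on chromosome 9 at 106429454 to 106431568 of GRCm38 (plus strand), had 6.22, 140 and 180 CPM in cre_AA14, 130, 134 and 163 CPM in cre_Vehicle, 150, 62.3 and 172 CPM in ctrl_AA14 and 191, 159 and 115 CPM in ctrl_Vehicle. The library cre_AA14 1 lay far below all others, although 66 other ribosomal protein genes were at their highest in it. With its 27 copies added, Rpl29 had 134, 238 and 296 CPM in cre_AA14, 224, 215 and 273 CPM in cre_Vehicle, 246, 157 and 276 CPM in ctrl_AA14 and 312, 260 and 203 CPM in ctrl_Vehicle. The 2 low libraries stayed the lowest, and the SD around the shared pattern was 0.42 in place of 1.45.

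Rpl17 (ENSMUSG00000062328), on chromosome 18 at 74998558 to 75003381, had 453, 146 and 384 CPM in cre_AA14, 289, 166 and 157 CPM in cre_Vehicle, 354, 199 and 421 CPM in ctrl_AA14 and 145, 131 and 121 CPM in ctrl_Vehicle. Its pseudogene Rpl17-ps10 had 275, 370 and 238 CPM in cre_AA14, 180, 281 and 385 CPM in cre_Vehicle, 185, 268 and 152 CPM in ctrl_AA14 and 456, 384 and 296 CPM in ctrl_Vehicle. It lay at 152 to 275 CPM in the 5 libraries with the most Rpl17 and at 268 to 456 CPM in the other 7. Summed over Rpl17 and its 22 copies, the levels were 1030, 772 and 878 CPM in cre_AA14, 691, 656 and 803 CPM in cre_Vehicle, 778, 709 and 822 CPM in ctrl_AA14 and 888, 779 and 608 CPM in ctrl_Vehicle. The sum followed the shared pattern with an SD of 0.05, against 0.65 for Rpl17 alone, so the gene's own value is uncertain. Rpl7a behaved alike, with an SD of 0.31 alone and 0.06 with its 31 copies.

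Rplp2 (ENSMUSG00000025508), the P2 protein of the stalk that binds elongation factors, lies on chromosome 7 at 141447370 to 141451585 and has 1 near-identical copy. It had 204, 49.1 and 110 CPM in cre_AA14 (121 ± 77.8, SD, n = 3), 50.6, 123 and 138 CPM in cre_Vehicle (104 ± 46.6), 52.7, 48.5 and 37 CPM in ctrl_AA14 (46.1 ± 8.13) and 137, 113 and 134 CPM in ctrl_Vehicle (128 ± 12.9). The 5 libraries with more than 1000 CPM of Malat1 had 37 to 52.7 CPM of Rplp2, and the other 7 had 110 to 204 CPM, with no library between. Its stalk partner Rplp1 did not divide in this way: it had 574, 421 and 472 CPM in cre_AA14, 401, 395 and 437 CPM in cre_Vehicle, 447, 404 and 423 CPM in ctrl_AA14 and 467, 407 and 448 CPM in ctrl_Vehicle. Rplp0, whose values stand above, had 934 to 1060 CPM in the 5 Malat1-rich libraries and 1030 to 1460 CPM in the other 7, which overlap by 1 library. How many of all genes divide as Rplp2 does is not given here.

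Rps10 (ENSMUSG00000052146), a small subunit protein on chromosome 17 at 27630418 to 27636669, had 375, 246 and 168 CPM in cre_AA14, 131, 123 and 152 CPM in cre_Vehicle, 147, 141 and 261 CPM in ctrl_AA14 and 171, 262 and 224 CPM in ctrl_Vehicle. It shares exon bases with the readthrough gene RPS10-NUDT3 on the same strand, which is among its copies at 0 CPM, and with Gm15420 on the other. With its 3 copies added it had 568, 382 and 308 CPM in cre_AA14, 251, 233 and 292 CPM in cre_Vehicle, 275, 261 and 393 CPM in ctrl_AA14 and 323, 390 and 341 CPM in ctrl_Vehicle, and cre_AA14 still lay above cre_Vehicle. Rpl41, on chromosome 10, departed in 1 library only: it had 739, 581 and 1100 CPM in cre_AA14, 503, 438 and 560 CPM in cre_Vehicle, 555, 552 and 608 CPM in ctrl_AA14 and 677, 526 and 446 CPM in ctrl_Vehicle.

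**Figure D3:**
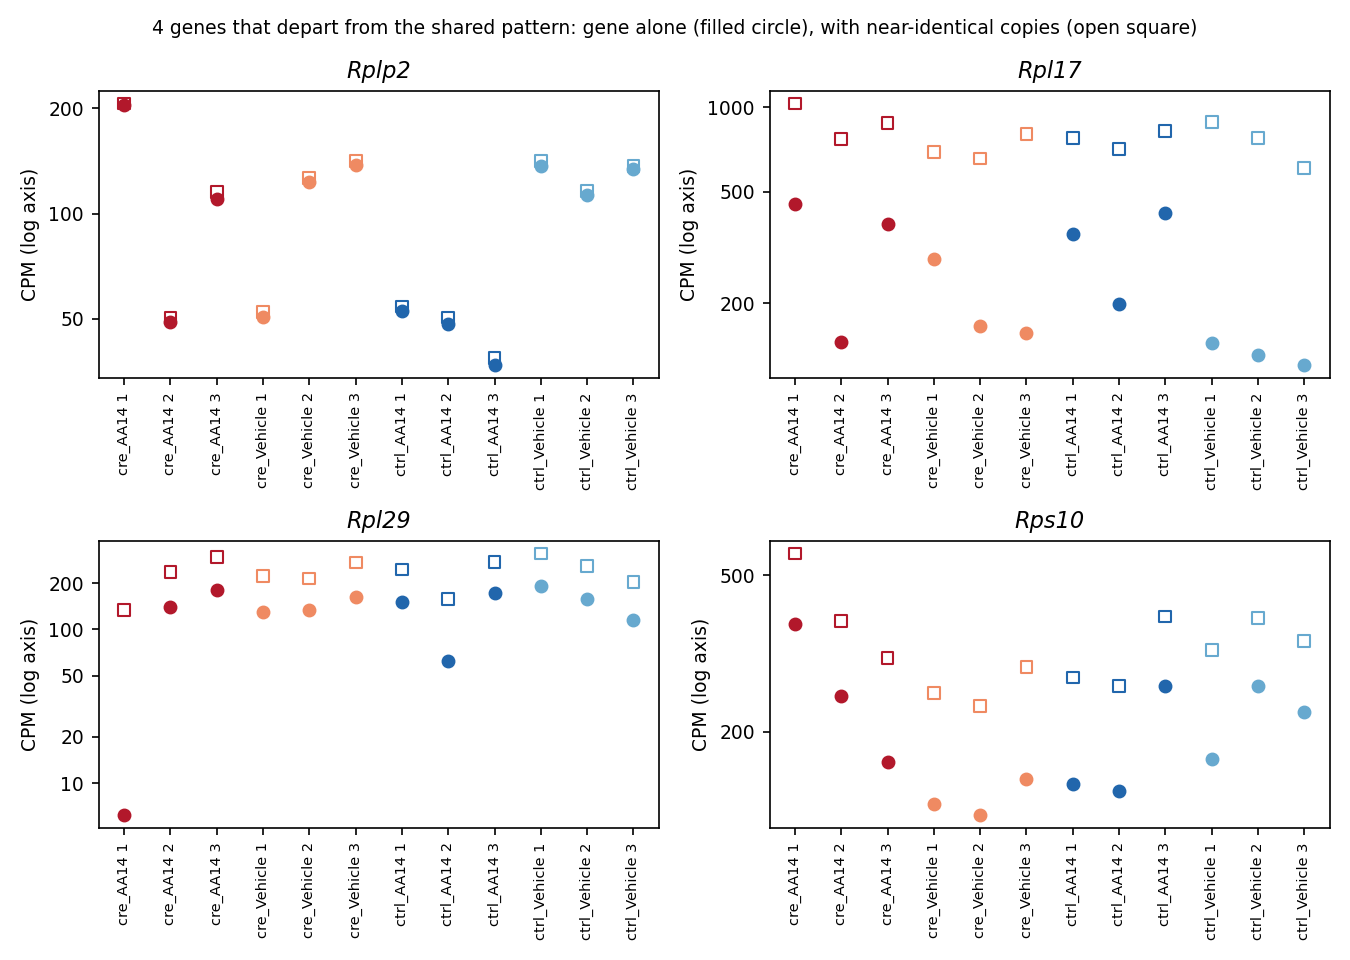
Level in CPM (log axes) of Rplp2, Rpl17, Rpl29 and Rps10 in each of the 12 libraries, for the gene alone (filled circles) and with the counts of its near-identical copies added (open squares); colours mark the 4 groups. Rplp2 falls into 37 to 52.7 CPM in 5 libraries and 110 to 204 CPM in the other 7, and the scatter of Rpl17 is largely gone once copies are added.

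The first comparison asks about AA14 in mice given the cre virus. In these mice the ribosomal protein genes leaned upward under AA14: the fitted log2 fold change of cre_AA14 over cre_Vehicle was positive for 74 of 76 genes with a median of 0.3 (0.28 for large and 0.31 for small subunit genes), while the median of all 22630 genes tested was 0 and 49.7% of them were positive. No ribosomal protein gene passed the threshold of an adjusted p of 0.05 in edgeR's quasi-likelihood test (every adjusted p was 1), nor did any other gene (0%), and DESeq2 and limma-voom called 0 of the 76 as well, against 0.0627% and 0% of all genes. At an unadjusted p under 0.05 edgeR had 10 higher and 0 lower, against 2.29% of all genes, 1.2% higher and 1.09% lower. The 3 libraries of cre_AA14 lay above all 3 of cre_Vehicle for 17 genes and below for 0, against 3.32% and 2.54% of all genes. Since the genes share the library pattern above, they are not 76 separate observations.

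Among these, Rps10 averaged 263 ± 104 CPM in cre_AA14 and 136 ± 14.9 CPM in cre_Vehicle (SD, n = 3 each), a log2 fold change of 0.96 ± 0.31 (SE; edgeR adjusted p = 1), or 0.69 with its copies. Rpl41 had 0.69 ± 0.22, or 0.39 without cre_AA14 3. Next came Rps15a (0.39 ± 0.16), Rps23 (0.37 ± 0.15), a protein of the decoding centre, and Rpl35a (0.42 ± 0.17), all with an adjusted p of 1. Rps15a had 366, 272 and 274 CPM in cre_AA14, against 238, 215 and 242 CPM in cre_Vehicle. Rps23 had 833, 644 and 686 CPM in cre_AA14, against 543, 508 and 617 CPM in cre_Vehicle. In both, cre_AA14 lay above cre_Vehicle in every library, with cre_AA14 1 the highest. The only value below 0 by more than rounding was that of Rpl29 (−0.39 ± 0.78).

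The size of the lean rested on single libraries. Without cre_AA14 1 the median log2 fold change was 0.14, with 72 of 76 genes positive and 1 at an unadjusted p under 0.05; without cre_AA14 2 it was 0.41, with 75 positive and 38 under 0.05. That count was 21 without cre_Vehicle 3, 18 without ctrl_Vehicle 3, 2 without cre_Vehicle 2 and 5 to 12 without each other library in turn. Without the libraries above 1000 CPM of Malat1 the median was 0.37, and without those rich in oligodendrocyte markers 0.22, with 74 genes positive in both. The 5 stress genes had a median log2 fold change of 2.7, all 5 positive, with summed levels of 112 to 2910 CPM in cre_AA14 and 130 to 305 CPM in cre_Vehicle. The 7 oligodendrocyte markers had a median of −2.57, all 7 negative, with summed levels of 77.5 to 465 CPM in cre_AA14 and 77.1 to 3310 CPM in cre_Vehicle, and of these Mog was at 0 in at least 1 library. The 5 red cell markers were also negative throughout (median −0.7) and the 7 hormone genes positive throughout (median 0.18). These lists held no gene past the threshold in edgeR, and beyond these refits their part in the lean was not tested.

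With control virus, the ribosomal protein genes did not lean one way under AA14. The log2 fold change of ctrl_AA14 over ctrl_Vehicle was positive for 33 and negative for 43 of the 76, with a median of −0.02, the same as the median of all genes. In edgeR 0 of the 76 passed the adjusted threshold, as against 0.00442% of all genes, although 23.8% of all genes had an unadjusted p under 0.05 (8.03% higher and 15.8% lower). DESeq2 called 3 of the 76, against 13.4% of all genes, and limma-voom 6, against 15.1%, so both shares of the 76 were below those of all genes. Of the ribosomal protein genes, edgeR had 2 higher and 2 lower at an unadjusted p under 0.05. The groups did not overlap for 4 genes that were higher and 3 that were lower, against 17.6% and 20.1% of all genes. The balance of signs moved with the scaling: upper quartile factors gave 53 positive and a GC slope 54, where limma-voom gave 18 and the addition of copies 24, and upper quartile factors moved the median of all genes to 0.11. Leaving out ctrl_Vehicle 1 gave a median of 0.07 with 51 positive, and leaving out ctrl_Vehicle 3 gave −0.13 with 14.

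The single genes that stood out here were those described above. Rplp2 had a log2 fold change of −1.48 ± 0.46 (edgeR adjusted p = 0.141), with no overlap between ctrl_AA14 and ctrl_Vehicle. DESeq2 gave it an adjusted p of 0.0255 and limma-voom 0.0176. With the slope of each library over GC content in the fit it was −0.29, and over all alternatives its adjusted p ran from 0.0174 to 0.999. That slope divided these groups, so the fit cannot well separate it from AA14 treatment. Spearman's r of gene levels, each relative to its mean, with GC content was −0.41 to −0.29 in ctrl_AA14 and 0.12 to 0.35 in ctrl_Vehicle. It was −0.41 to −0.21 in the 5 Malat1-rich libraries and 0.02 to 0.35 in the other 7. With the slope, 2.67% of all genes had an unadjusted p under 0.05 in edgeR, against 23.8% without it. Rpl17 had 1.3 ± 0.4 (edgeR adjusted p = 0.141; DESeq2 adjusted p = 0.0248), but 0.01 with its copies added.

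Rpl14 had 430, 405 and 465 CPM in ctrl_AA14, against 292, 376 and 325 CPM in ctrl_Vehicle, with no overlap. Its log2 fold change was 0.39 ± 0.14 (edgeR adjusted p = 0.146; DESeq2 adjusted p = 0.0494), and it ran from 0.23 to 0.52 over the alternatives. Rpl8, which lies close to the peptidyl transferase centre, had 466, 461 and 438 CPM in ctrl_AA14, against 567, 613 and 602 CPM in ctrl_Vehicle (−0.38 ± 0.17, edgeR adjusted p = 0.194), and −0.04 with the GC slope. Rps28 had 66.3, 67.1 and 76.7 CPM in ctrl_AA14, against 125, 106 and 82.6 CPM in ctrl_Vehicle (−0.58 ± 0.27, edgeR adjusted p = 0.219), and −0.2 with the GC slope. Of these, limma-voom also called Rpl17 (adjusted p = 0.037), Rpl14 (0.0474), Rpl8 (0.046) and Rps28 (0.0262), and besides them Rpl10a (0.0441). Rpl21 (0.42 ± 0.19, or 0.32 with copies), Rpl4 (0.2) and Rps24 (0.24) were next among the higher genes and Rpl10a (−0.27) and Rpl18 (−0.29) among the lower ones. Marker lists that were negative throughout were those of the posterior lobe (4 genes, median −1.81), oligodendrocytes (7 genes, −1.21) and folliculostellate and stem cells (4 genes, −0.96). The mean of the oligodendrocyte markers in log2(CPM + 0.5) was 5.93, 2.36 and 2.64 in ctrl_AA14, against 3.35, 2.97 and 7.47 in ctrl_Vehicle. That of the folliculostellate and stem cell markers was 5.04, 3.94 and 3.78, against 4.51, 4.21 and 6.21. Both lists thus overlapped and were highest in ctrl_Vehicle 3 among these libraries. Posterior lobe means did not overlap (1.99 to 2.47, against 3.47 to 5.58). Lists positive throughout were the lymphocyte and plasma cell markers (7 genes, median 1.17), the nuclear-retained RNAs (3 genes, 1.22) and the red cell markers (5 genes, 0.98). The part of all these lists in the values above was not tested.

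Under vehicle, the comparison of cre virus with control virus asks about the cre virus by itself. The ribosomal protein genes leaned slightly downward in cre_Vehicle relative to ctrl_Vehicle: 9 were positive and 67 negative, with a median log2 fold change of −0.11 (−0.12 for large and −0.1 for small subunit genes), against −0.02 for all genes, of which 46.2% were positive. In edgeR 0 of 76 passed the adjusted threshold (0.00442% of all genes), and DESeq2 and limma-voom also called 0 (0.0851% and 0.00884% of all genes). At an unadjusted p under 0.05 there was 1, Rps10 (−0.69 ± 0.31, edgeR adjusted p = 1; −0.44 with copies), against 2% of all genes (0.932% higher and 1.06% lower). The groups did not overlap for 2 genes that were higher and 1 that was lower, against 2.39% and 2.53% of all genes. Rpl10a had 281, 286 and 330 CPM in cre_Vehicle, against 442, 385 and 306 CPM in ctrl_Vehicle (−0.34 ± 0.17). Rps25 had 213, 248 and 212 CPM in cre_Vehicle, against 382, 302 and 183 CPM in ctrl_Vehicle (−0.36 ± 0.25). Both sets overlapped.

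Rpl22 (−0.17) was also among the low ranks. The positive ranks went to Rpl21 (0.33 ± 0.19, or 0.02 with copies), Rpl17 (0.63 ± 0.4, or −0.08 with copies), Rpl14 (0.12), Rpl4 (0.03) and Rpl28 (0.02). Each of these had an edgeR adjusted p of 1. The median was −0.01 with 36 genes positive without ctrl_Vehicle 1, and −0.24 with 5 positive without ctrl_Vehicle 3. It was −0.05 with 19 positive without cre_Vehicle 2, and −0.21 without cre_Vehicle 3. The small lean thus changed with single libraries of both groups. Red cell (5 genes, median 1.25), lymphocyte and plasma cell (7 genes, 0.51) and nuclear-retained (3 genes, 0.46) lists were positive throughout in cre_Vehicle over ctrl_Vehicle. Macrophage (7 genes, −0.31) and posterior lobe (4 genes, −0.94) lists were negative throughout. The mean of the nuclear-retained RNAs in log2(CPM + 0.5) was 9.97, 8.35 and 8.28 in cre_Vehicle, against 8.53, 8.84 and 8.04 in ctrl_Vehicle. It thus stood out in cre_Vehicle 1 only. That of the posterior lobe markers was 2.08, 3.9 and 3.62, against 3.47, 3.59 and 5.58. The library means of all these lists overlapped between the groups, and their part was not tested.

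Under AA14, cre virus against control virus again gave an upward lean. The log2 fold change of cre_AA14 over ctrl_AA14 was positive for 73 of 76 genes, with a median of 0.2 (0.18 for large and 0.23 for small subunit genes), against −0.01 for all genes, of which 49.4% were positive. In edgeR 0 of 76 passed the adjusted threshold (0% of all genes), as in DESeq2 (0.152%) and limma-voom (0%). At an unadjusted p under 0.05, 4 were higher and 0 lower, against 8.52% of all genes, 7.08% higher and 1.44% lower. Groups did not overlap for 6 higher and 0 lower genes, against 7.3% and 6.76% of all genes. Rpl8 had 786, 531 and 647 CPM in cre_AA14, against 466, 461 and 438 CPM in ctrl_AA14 (0.53 ± 0.17, edgeR adjusted p = 0.582), and 0.31 with the GC slope. Rplp2 followed (1.39 ± 0.46, adjusted p = 0.582; 0.46 with the GC slope), then Rps28 (0.6 ± 0.27) and Rpl41 (0.5 ± 0.22). Without cre_AA14 1 Rplp2 had 0.79 and Rps28 0.31, and without cre_AA14 3 Rpl41 had 0.21.

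Negative values in this contrast were those of Rpl7a (−0.17 ± 0.26), Rpl14 (−0.09 ± 0.14) and Rpl29 (−0.24 ± 0.78). The median was 0.09 with 62 genes positive and 1 higher at an unadjusted p under 0.05 without cre_AA14 1, and 0.31 with 27 such genes without cre_AA14 2; limma-voom had 25 such genes. Of the marker lists, the 5 stress genes (median 2.35) and the 4 posterior lobe markers (median 1.31) were positive throughout. The mean of the stress genes in log2(CPM + 0.5) was 8.88, 4.47 and 3.45 in cre_AA14, against 3.46 to 5.86 in ctrl_AA14. That of the posterior lobe markers was 4.02, 2.11 and 3.92, against 1.99 to 2.47. Stress thus stood out in cre_AA14 1 only, and posterior lobe markers were not raised in cre_AA14 2. The 3 nuclear-retained RNAs (median −0.69), the 5 red cell markers (−0.4) and the 7 lymphocyte and plasma cell markers (−0.43) were negative throughout, and the part of these lists was not tested. This comparison shares cre_AA14 with the one inside cre mice, so the shift of cre_AA14 1 enters both.

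The interaction, the AA14 effect under cre virus minus that under control virus, tested the difference between both effects itself. Its log2 value was positive for 72 of 76 genes, with a median of 0.33 (0.31 for large and 0.36 for small subunit genes), against 0.03 for all genes, of which 52.3% were positive. No ribosomal protein gene passed in edgeR (0.00442% of all genes did; lowest adjusted p among the 76, 0.631), in DESeq2 (0.116%) or in limma-voom (0%). In edgeR 4 had an unadjusted p under 0.05, all positive, against 7.03% of all genes, 4.86% positive and 2.17% negative. These were Rps10 (1.22 ± 0.43), Rplp2 (1.7 ± 0.64), Rpl10a (0.6 ± 0.24) and Rpl8 (0.6 ± 0.24), with Rps28 (0.82 ± 0.38) next. The negative values belonged to Rpl17 (−0.62 ± 0.56), Rpl14 (−0.2 ± 0.19), Rpl21 (−0.26 ± 0.27) and Rpl29 (−0.11 ± 1.1). With copies added, Rpl17 had 0.3, Rpl14 −0.17, Rpl21 −0.09 and Rpl29 0.11. With the GC slope in the fit Rplp2 had 0.67, Rpl8 0.32 and Rps28 0.48, and without cre_AA14 1 Rplp2 had 1.1 and Rps28 0.53. The number of genes higher at an unadjusted p under 0.05 was 24 without ctrl_Vehicle 3, 21 without cre_AA14 2, 12 without cre_Vehicle 3 and 19 with limma-voom, but 2 without ctrl_AA14 3 or cre_Vehicle 1, and 1 without cre_AA14 1 or with the GC slope. The median was 0.19 without cre_AA14 1, and 0.23 with upper quartile factors or without ctrl_Vehicle 1. In the interaction the stress (5 genes, median 2.52), posterior lobe (4 genes, 2.25) and macrophage (7 genes, 0.56) lists were positive throughout, and the red cell (5 genes, −1.72), lymphocyte and plasma cell (7 genes, −0.72) and nuclear-retained (3 genes, −1.15) lists negative throughout; their part was not tested. The high stress mean of cre_AA14 1 given above enters the stress value here as well. A difference between the AA14 effects in cre and control-virus mice was thus not called for any single ribosomal protein gene.

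**Figure D4:**
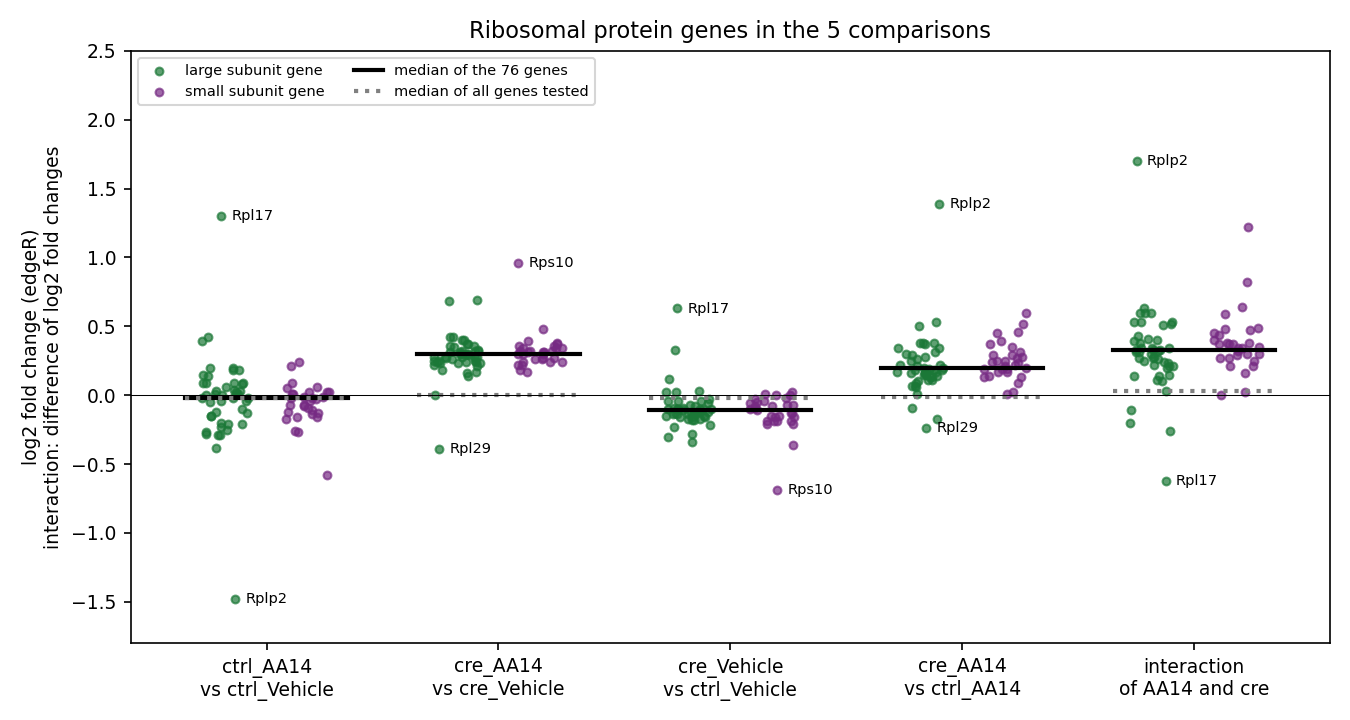
Fitted log2 fold change (y axis) of each of the 76 genes in each of the 5 comparisons (x axis), with large and small subunit genes side by side, 1 point per gene; solid lines are medians of the 76 genes and dotted lines medians of all genes tested. The solid lines lie at −0.02 for ctrl_AA14 over ctrl_Vehicle, 0.3 for cre_AA14 over cre_Vehicle, −0.11 for cre_Vehicle over ctrl_Vehicle, 0.2 for cre_AA14 over ctrl_AA14 and 0.33 for the interaction, and no point passed the adjusted threshold in edgeR.

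Ribosomal protein genes outside the naming rule had values of the same order. A list of 4 such genes, Rack1 among them, was positive for all 4 in cre_AA14 over cre_Vehicle (median log2 fold change 0.3) and for 3 of 4 in ctrl_AA14 over ctrl_Vehicle (0.11). Rack1, a scaffold protein on the small subunit head, had 952, 652 and 857 CPM in cre_AA14, against 479, 468 and 637 CPM in cre_Vehicle, with no overlap (0.63, edgeR adjusted p = 1). Of 8 paralogues, 6 passed the filter, among them Rpl22l1 at 88.8 to 144 CPM and Rps27l at 30.7 to 53.6 CPM, while Rpl39l did not pass, at 0 to 0.161 CPM. Named ribosomal protein pseudogenes passing the filter, 130 of 298, had medians of 0.27 in cre_AA14 over cre_Vehicle and 0.01 in ctrl_AA14 over ctrl_Vehicle, and reads of these can be shared with the 76 genes.

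Translation factors, many of them also TOP mRNAs, were less uniform. Of 20, 18 were positive in cre_AA14 over cre_Vehicle (median 0.16), and 7 in ctrl_AA14 over ctrl_Vehicle (median −0.13), where 5 had an unadjusted p under 0.05, all lower (15.8% of all genes were), and DESeq2 called 4 (13.4% of all genes). Eef2, the elongation factor that the stalk binds, had 3920, 1410 and 2880 CPM in cre_AA14, 1600, 3110 and 3540 CPM in cre_Vehicle, 1450, 1610 and 1240 CPM in ctrl_AA14 and 3040, 2850 and 2870 CPM in ctrl_Vehicle. Its low libraries were the 5 with Malat1 above 1000 CPM, as they were for Rplp2, and its log2 fold change of ctrl_AA14 over ctrl_Vehicle was −1.03 (edgeR adjusted p = 0.141; DESeq2 adjusted p = 0.0422). Eif3f, a subunit of initiation factor eIF3, had 238, 53.5 and 156 CPM in cre_AA14, 66.4, 179 and 211 CPM in cre_Vehicle, 58.6, 61.1 and 43 CPM in ctrl_AA14 and 180, 161 and 173 CPM in ctrl_Vehicle, the same division. Pabpc1, the poly(A)-binding protein, divided alike, with 104 to 129 CPM in those 5 libraries and 237 to 408 CPM in the other 7. By contrast Eef1a1, which brings aminoacyl-tRNA to the ribosome, had 7360, 7060 and 7750 CPM in cre_AA14, 6470, 5630 and 7150 CPM in cre_Vehicle, 6740, 7060 and 7720 CPM in ctrl_AA14 and 6340, 6950 and 5440 CPM in ctrl_Vehicle. The share of all genes that divide as Eef2 does is not given here. In ctrl_AA14 over ctrl_Vehicle, 20.1% of all genes were lower without overlap.

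Ribosome biogenesis factors, which assemble the subunits, had medians of 0.01 in cre_AA14 over cre_Vehicle (17 of 32 positive) and 0.06 in ctrl_AA14 over ctrl_Vehicle (18 of 32), and the mTOR and Myc regulators −0.17 (5 of 16) and −0.31 (5 of 16). Among the regulators, Larp1, the repressor of TOP mRNAs, had 45.6, 44.6 and 44.4 CPM in ctrl_AA14, against 65.4, 73.3 and 95.6 CPM in ctrl_Vehicle (−0.8, edgeR adjusted p = 0.141; DESeq2 adjusted p = 0.0455). In the cre groups Larp1 had 76.7, 43.2 and 75.6 CPM in cre_AA14 and 52.2, 94.9 and 77.8 CPM in cre_Vehicle. It thus lay at 43.2 to 52.2 CPM in the 5 libraries with Malat1 above 1000 CPM and at 65.4 to 95.6 CPM in the other 7. The share of all genes with this division is, as stated, not given. Mitochondrial ribosomal protein genes had medians of 0.08 (57 of 78 positive) and 0.12 (48 of 78). The 6 TOP snoRNA host genes were positive throughout in both, with medians of 0.34 in cre_AA14 over cre_Vehicle and 0.52 in ctrl_AA14 over ctrl_Vehicle. Of these Gas5 had 273, 259 and 269 CPM in ctrl_AA14, against 211, 183 and 122 CPM in ctrl_Vehicle, without overlap (0.63, edgeR adjusted p = 0.141; DESeq2 adjusted p = 0.0473). No gene of these lists passed the adjusted threshold in edgeR in any of the 5 comparisons. At an unadjusted p under 0.05 in ctrl_AA14 over ctrl_Vehicle, edgeR had 4 biogenesis factors higher and 6 lower, 1 mTOR or Myc regulator higher and 5 lower, and 5 mitochondrial ribosomal protein genes on either side; DESeq2 called 5 of 32, 3 of 16 and 6 of 78. These counts stand beside 8.03% of all genes higher and 15.8% lower in edgeR, and 13.4% called by DESeq2.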

How the data were processed

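Read counts per gene were deposited by the authors for 12 pituitary libraries, and no normalisation had been applied to them. Per the labels and the submitters' processing notes, libraries were made with a NEBNext Ultra kit, reads were mapped to GRCm38 with HISAT2 2.0.0 and counted with featureCounts 1.5.0-p3, and DESeq 1.8.3 was used. The annotation release, the use of strand and the treatment of reads with several matches are not given in those sources. Groups came from the labels' genotype and treatment. Genes were filtered with edgeR's filterByExpr (22630 kept), scaled by TMM factors and tested with edgeR 4.0.16 (quasi-likelihood, 1 mean per group over all 12 libraries, Benjamini-Hochberg over all genes, threshold 0.05) in R 4.3.3; the spread was wide (common biological coefficient of variation 0.445). Fold changes are log2, first-named over second-named group, with SE from the F statistic, and CPM use TMM-scaled library sizes. Deviations used a pseudocount of 0.5 CPM. Alternatives were DESeq2 1.42.0, limma-voom 3.58.1 with quality weights, other scalings and filters, a GC slope, and leaving out libraries. Near-identical copies were found with blastn 2.17.0 in GENCODE vM21 transcripts, an alternative chosen after seeing the data. The fits were tested before use on counts simulated with larger changes in ctrl_AA14 only. That test did not cover changes as small as the medians here or shifts shared by the genes of a library. Genes were named by level, by r, by role and as the 5 of smallest p in either direction per comparison. The genes, lists and tests were chosen with earlier results of these data known. A few genes are not reported by name here, although they enter every count and median.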

Additional observations from a re-analysis of the deposited data

How the results depend on the processing

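The 76 genes gave 0 calls in edgeR in all 5 comparisons, and this held under every alternative run except in ctrl_AA14 over ctrl_Vehicle, where DESeq2 called 3 (13.4% of all genes), limma-voom 6 (15.1%) and a fit of only the groups compared 2 (10.6%); the cause was not tested. Under every alternative the medians moved from the reported value by less than the pooled SD of library medians (0.181). This limit is wide, since it exceeds the size of the medians −0.02 and −0.11 themselves. Moves within it include that from 0.3 to 0.14 in cre_AA14 over cre_Vehicle. They also include that from −0.02 to 0.07 in ctrl_AA14 over ctrl_Vehicle. Leaving out 1 library in turn gave medians of 0.14 to 0.41 for cre_AA14 over cre_Vehicle, −0.13 to 0.07 for ctrl_AA14 over ctrl_Vehicle, −0.24 to −0.01 for cre_Vehicle over ctrl_Vehicle, 0.09 to 0.31 for cre_AA14 over ctrl_AA14 and 0.19 to 0.43 for the interaction. Without the hormone genes in the denominator the summed share was 5.37% in cre_AA14, 4.41% in cre_Vehicle, 4.78% in ctrl_AA14 and 4.72% in ctrl_Vehicle; with named pseudogenes added it was 4.24% in cre_AA14, 3.57% in cre_Vehicle, 3.7% in ctrl_AA14 and 3.96% in ctrl_Vehicle. Signs turned for a few genes near 0 or with many copies. With copies added, Rpl17 was −0.08 in cre_Vehicle over ctrl_Vehicle and 0.3 in the interaction, Rpl7a 0.24 in cre_AA14 over ctrl_AA14 and Rpl29 0.11 in the interaction. With limma-voom, Rpl4 was −0.03 in cre_Vehicle over ctrl_Vehicle and Rpl7a 0.06 in cre_AA14 over ctrl_AA14. With the GC slope, Rpl14 was 0.00 and Rpl29 0.24 in cre_AA14 over ctrl_AA14, and Rpl29 was 0.52 in the interaction, where it was 0.1 without the oligodendrocyte-rich libraries. With 1 library left out, Rpl29 ran from −0.98 to 0.16 in cre_AA14 over cre_Vehicle, −0.82 to 0.33 in cre_AA14 over ctrl_AA14 and −0.69 to 0.45 in the interaction, Rpl7a from −0.29 to 0.1 in cre_AA14 over ctrl_AA14, and in cre_Vehicle over ctrl_Vehicle Rpl28 from −0.09 to 0.09 and Rpl4 from −0.09 to 0.12. With the replicate number as a block, medians were 0.28, −0.02, −0.11, 0.19 and 0.31 in the order of the medians above, and 0 genes were called. Of 18 pairs of libraries with the same number 5 correlated above 0.1 (−0.56 to 0.36). Pairs with different numbers, from different groups, ran from −0.5 to 0.67. These values cannot decide whether the numbers pair the libraries. Leaving out the Malat1-rich libraries could be run only within cre mice and under vehicle, since ctrl_AA14 keeps none. Depth as a limit on these results was not tested.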
